A study of Mus musculus with 12 samples.

Results

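The genes described here encode nuclear subunits of the later respiratory complexes of the mitochondrion: succinate dehydrogenase (complex II, 4 genes), the cytochrome bc1 complex (complex III, 9 genes), cytochrome c (Cycs), cytochrome c oxidase (complex IV, 6 genes) and ATP synthase (complex V, 16 genes). They were taken by name: a fixed list of subunit genes, to which every nuclear ATP synthase subunit whose older symbol starts with Atp5 was added, without pseudogenes. This gave 36 genes of 25370 tested, and further subunits of complex IV are described apart below. All 36 were well above background on all 12 arrays, and none was saturated on any. Probes for the subunits encoded in mitochondrial DNA were not analysed here.

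Left ventricular RNA of C57/Bl6 mice was read on 12 single-colour Agilent arrays, 3 in each of 4 groups. Wild-type mice and mice carrying a transgene for CnAb1, a calcineurin splicing variant, had either a sham operation or TAC, in which a constriction of the transverse aorta makes the left ventricle pump against more pressure. Hearts of all 4 groups were taken at day 21 after surgery by the protocol, although the time given for sham samples in another label is 0. The labels name neither the promoter that drives the transgene nor the number of lines, ages or animals, so p-values measure the spread between arrays, which may be technical. Levels below are log2 signals relative to each array's 75th percentile, and differences are log2 differences ± standard error (SE) with p-values from limma, adjusted over the 25370 genes.

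The respiratory chain passes electrons from fuel molecules to oxygen and pumps protons across the inner mitochondrial membrane, and ATP synthase lets the protons back and makes ATP. Complex II oxidises succinate, complex III hands the electrons to cytochrome c, and complex IV passes them to oxygen. Cardiac muscle depends on this pathway for nearly all of its ATP, and its genes are controlled in common by the transcription factors NRF1, GABP, YY1 and the estrogen-related receptors with the coactivator PGC-1alpha.

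Stretches before the members' start sites that hold words bound by these factors are shown, with the words in capitals. Whether these words bear on the changes described below was not tested. Promoter windows, from 250 bases before to 50 after the annotated start, were taken from RefSeq on the mouse assembly GRCm38.p6 for 29 of the 36 genes, 32 windows in all. Each stretch reads 5′ to 3′ along the gene's own strand and ends before the start site.
Cycs, chr6:50566592-50566659, minus strand, NRF1 word: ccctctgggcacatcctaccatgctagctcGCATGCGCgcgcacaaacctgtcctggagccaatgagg
Sdhb, chr4:140961187-140961254, plus strand, NRF1 word: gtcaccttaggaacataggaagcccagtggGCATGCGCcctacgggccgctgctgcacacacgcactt
Atp5g2, chr15:102671050-102671119, minus strand, NRF1 word on both strands: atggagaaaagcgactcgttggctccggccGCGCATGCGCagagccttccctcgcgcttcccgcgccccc
Uqcr11, chr10:80406851-80406917, minus strand, GABP word: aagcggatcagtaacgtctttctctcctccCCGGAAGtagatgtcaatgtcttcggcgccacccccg
Cox6b1, chr7:30626115-30626172, minus strand, GABP word: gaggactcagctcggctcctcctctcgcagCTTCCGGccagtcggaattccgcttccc
Atp5j, chr16:84835001-84835094, minus strand, YY1 then GABP word: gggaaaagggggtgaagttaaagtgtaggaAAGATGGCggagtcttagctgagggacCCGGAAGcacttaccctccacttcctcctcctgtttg
Atp5g3, chr2:73911340-73911408, minus strand, estrogen-related receptor word: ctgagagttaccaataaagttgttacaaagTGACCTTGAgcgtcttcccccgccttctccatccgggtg

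The words searched on both strands were GCGCATGC for NRF1, CCGGAAG for GABP, AAGATGGC for YY1 and TCAAGGTCA for the estrogen-related receptors. The NRF1 word overlaps its own copy on the other strand where both are present, as in Atp5g2, and no other pair overlapped in the stretches shown. The NRF1 word was in 7 of the 32 member windows (21.9%), against 2.71% of all 32851 windows of the table. The GABP word was in 10 member windows (31.2%), against 8.86% of all windows. The YY1 word was in 3 (9.38%), against 2.75%, and the receptor word in 2 (6.25%), against 0.423%. In all, 16 of the 29 genes had at least 1 of these words. The share of all genes with at least 1 was not counted, so this pooled count does not set the members apart. A match describes the letters and does not show that a factor binds there. Shares among other genes with signals like those of the members were not counted.

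The first question was how pressure overload alters these genes where no transgene is present, from wild-type TAC against wild-type sham hearts. All 36 genes fell: the median difference was -0.71, or 0.613 times the sham level, and single genes ranged from -1.0 ± 0.18 (Atp5e) to -0.50 ± 0.10 (Atp5s). Adjusted p ran from 0.000991 to 0.0105. Of all genes tested, 12.5% passed as lower and 8.68% as higher, with a median of -0.13. The wild-type TAC arrays lay below the wild-type sham arrays without overlap for the 35 members with a value on every array, against 29.3% of all genes. The member median per array, set against the wild-type sham mean, was -0.72 ± 0.12 (SD, n = 3) after TAC and -0.66, -0.66 and -0.86 on arrays 1 to 3. Wild-type TAC array 3 was the lowest of all 12 for 33 members. All 36 genes passed without it too, with a median of -0.66. With quantile normalization 13 passed and the median was -0.28, and with slide as a block 0 passed and the median was -0.70.

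**Figure D1:**
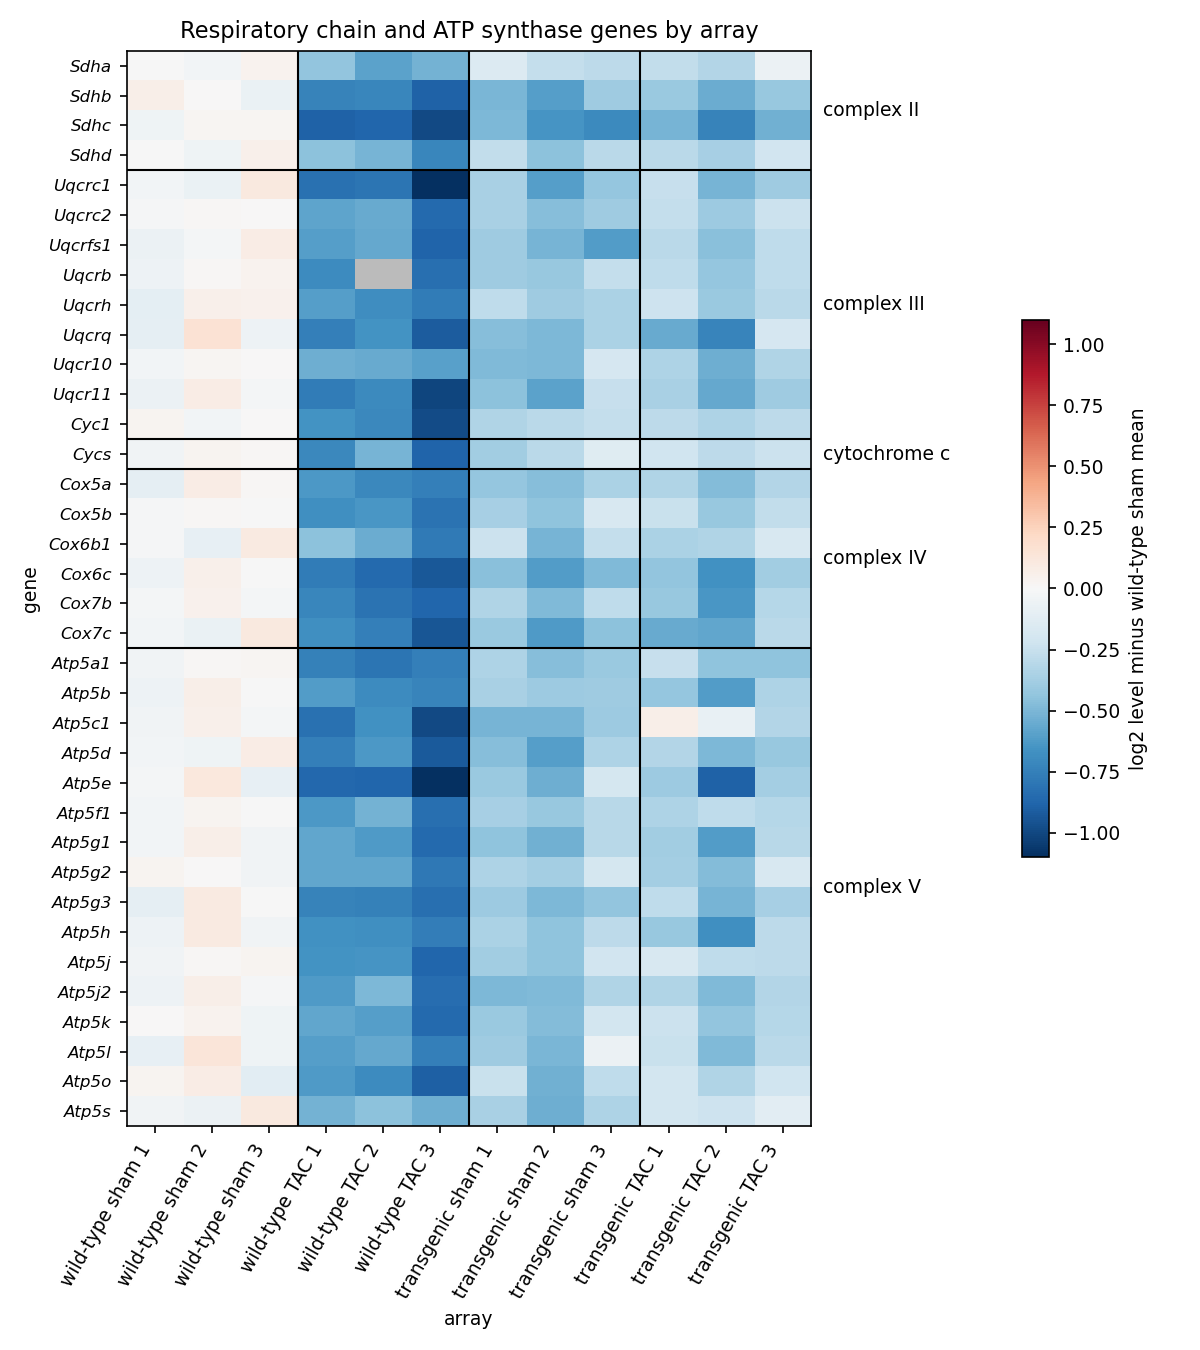
Colour shows each gene's log2 level minus its wild-type sham mean (blue lower, red higher) for 36 genes in rows by complex and 12 arrays in columns by group; the grey cell is an outlier spot left out. The 3 wild-type TAC columns are the darkest blue, and the 6 transgenic columns are mostly pale to middle blue after either operation, with Atp5e on transgenic TAC array 2 dark and Atp5c1 on transgenic TAC array 1 near the sham level.

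In complex II the membrane anchor Sdhc fell furthest and the flavoprotein Sdha, which oxidises succinate, least. Sdhc measured 6.33, 6.40 and 6.39 on wild-type sham arrays, 5.48, 5.50 and 5.39 on wild-type TAC arrays, 5.88, 5.73 and 5.68 on transgenic sham arrays and 5.86, 5.64 and 5.85 on transgenic TAC arrays. The wild-type groups stood far apart, and all 6 transgenic arrays lay between them. Its fall in wild-type hearts was -0.92 ± 0.10 (adjusted p = 0.000991), to 0.529 times the sham level. Sdha measured 6.04, 6.02 and 6.08 on wild-type sham, 5.61, 5.46 and 5.53 on wild-type TAC, 5.89, 5.78 and 5.76 on transgenic sham and 5.77, 5.72 and 5.98 on transgenic TAC arrays. The wild-type groups did not overlap here either, and the transgenic arrays again lay between them. Its fall was -0.51 ± 0.10 (adjusted p = 0.00794). The iron-sulfur subunit Sdhb fell by 0.78 and the other anchor, Sdhd, by 0.56 on the log2 scale.

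In complex III the core protein Uqcrc1 fell furthest and the small subunit Uqcr10 least. Uqcrc1 measured 6.43, 6.39 and 6.57 on wild-type sham, 5.65, 5.66 and 5.26 on wild-type TAC, 6.11, 5.87 and 6.05 on transgenic sham and 6.22, 5.96 and 6.08 on transgenic TAC arrays. Wild-type TAC array 3 was well below the other arrays of its group. The difference was -0.95 ± 0.14 (adjusted p = 0.00257). Uqcr10 measured 7.12, 7.17 and 7.16 on wild-type sham, 6.61, 6.60 and 6.55 on wild-type TAC, 6.66, 6.66 and 6.97 on transgenic sham and 6.81, 6.61 and 6.82 on transgenic TAC arrays. Both wild-type groups were tight, and transgenic TAC array 2 reached down into the range of the wild-type TAC arrays. The difference was -0.56 ± 0.11 (adjusted p = 0.00798). The other catalytic or core proteins lay near the complex median: cytochrome c1 (Cyc1) at -0.79, the Rieske iron-sulfur protein Uqcrfs1 at -0.68 and the core protein Uqcrc2 at -0.66. The small subunits Uqcr11, Uqcrq, Uqcrb and Uqcrh measured -0.83, -0.77, -0.76 and -0.69. The Uqcrb fit had 2 wild-type TAC arrays, since its spot on array 2 was an outlier.

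Cycs, the mobile carrier between complexes III and IV, measured 7.26, 7.33 and 7.31 on wild-type sham, 6.59, 6.79 and 6.41 on wild-type TAC, 6.91, 7.0 and 7.17 on transgenic sham and 7.08, 7.0 and 7.06 on transgenic TAC arrays. Wild-type TAC arrays were the lowest and the transgenic arrays lay between the wild-type groups. The fall was -0.70 ± 0.12 (adjusted p = 0.00404). A dim Cycs probe, well above background on 11 arrays, measured -0.92 in the same comparison (limma adjusted p = 0.0356, over all probes tested).

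In complex IV, whose nuclear subunits surround a catalytic core encoded in mitochondrial DNA, Cox6c fell furthest and Cox6b1 least. Cox6c measured 7.71, 7.82 and 7.76 on wild-type sham, 7.0, 6.91 and 6.83 on wild-type TAC, 7.31, 7.15 and 7.28 on transgenic sham and 7.33, 7.10 and 7.38 on transgenic TAC arrays. The wild-type groups were clearly apart, and array 2 was the lowest in both transgenic groups. Its difference was -0.85 ± 0.11 (adjusted p = 0.00156). Cox6b1 measured 5.26, 5.18 and 5.37 on wild-type sham, 4.82, 4.72 and 4.49 on wild-type TAC, 5.04, 4.76 and 5.01 on transgenic sham and 4.92, 4.94 and 5.09 on transgenic TAC arrays. The wild-type groups did not overlap, and transgenic sham array 2 fell within the wild-type TAC range. Its difference was -0.59 ± 0.13 (adjusted p = 0.0103). Cox5a and Cox5b, which bind the matrix side of the core, measured -0.70 and -0.71, and the small membrane subunits Cox7b and Cox7c -0.80 and -0.79.

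In complex V the central stalk subunit epsilon, Atp5e, fell furthest. It measured 8.12, 8.26 and 8.04 on wild-type sham, 7.27, 7.27 and 6.87 on wild-type TAC, 7.73, 7.60 and 7.95 on transgenic sham and 7.74, 7.25 and 7.77 on transgenic TAC arrays. Wild-type TAC array 3 and transgenic TAC array 2 were each well below the other arrays of their group. The difference was -1.0 ± 0.18 (adjusted p = 0.00488), the member with the largest SE. Atp5s, subunit s by its older name and now called Dmac2l, fell least. It was the only dim member and measured -0.26, -0.28 and -0.12 on wild-type sham, -0.74, -0.67 and -0.76 on wild-type TAC, -0.57, -0.76 and -0.56 on transgenic sham and -0.42, -0.45 and -0.34 on transgenic TAC arrays. The wild-type groups did not overlap, and the transgenic TAC arrays all lay above the transgenic sham arrays. Its fall was -0.50 ± 0.10 (adjusted p = 0.00738).

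The other parts of the ATP synthase gave similar values. The alpha and beta subunits of the catalytic head, Atp5a1 and Atp5b, measured -0.77 and -0.68, and the stalk subunits gamma (Atp5c1) and delta (Atp5d) -0.83 and -0.77. The peripheral stalk, which holds the head still, measured -0.74 for Atp5o (the oligomycin sensitivity protein), -0.73 for Atp5j, -0.70 for Atp5h and -0.66 for Atp5f1. The small membrane subunits Atp5k, Atp5j2 and Atp5l measured -0.68, -0.65 and -0.64. All of these passed.

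Subunit c forms the rotor ring and is encoded by 3 genes whose mature proteins are the same. Atp5g1 measured 8.37, 8.46 and 8.36 on wild-type sham, 7.82, 7.77 and 7.54 on wild-type TAC, 7.95, 7.86 and 8.09 on transgenic sham and 8.01, 7.78 and 8.09 on transgenic TAC arrays. Atp5g2 measured 7.49, 7.46 and 7.41, then 6.89, 6.88 and 6.67, then 7.11, 7.08 and 7.26, and then 7.08, 6.98 and 7.28 in the same order of groups. Atp5g3 measured 7.97, 8.17 and 8.07, then 7.33, 7.33 and 7.24, then 7.68, 7.58 and 7.64, and then 7.79, 7.56 and 7.71. For each of the 3 the wild-type groups did not overlap, and only for Atp5g1 did a transgenic array, TAC array 2, come down into the wild-type TAC range. Their falls were -0.68 ± 0.12, -0.64 ± 0.11 and -0.77 ± 0.10 (adjusted p = 0.0053, 0.00504 and 0.00175), so they differed by about their SE. Whether each probe reads its own gene alone was not tested.

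The medians of the complexes lay close to each other in these hearts. Medians in the wild-type TAC comparison were -0.67 for complex II, -0.76 for complex III, -0.75 for complex IV and -0.69 for complex V. They spanned 0.0878. Subunits of a single complex ranged over up to 0.498, but medians vary less than single genes, so the smaller span decides nothing. The SD of the 36 estimates was 0.111, about the size of their median SE (0.113). No test was made between complexes.

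**Figure D2:**
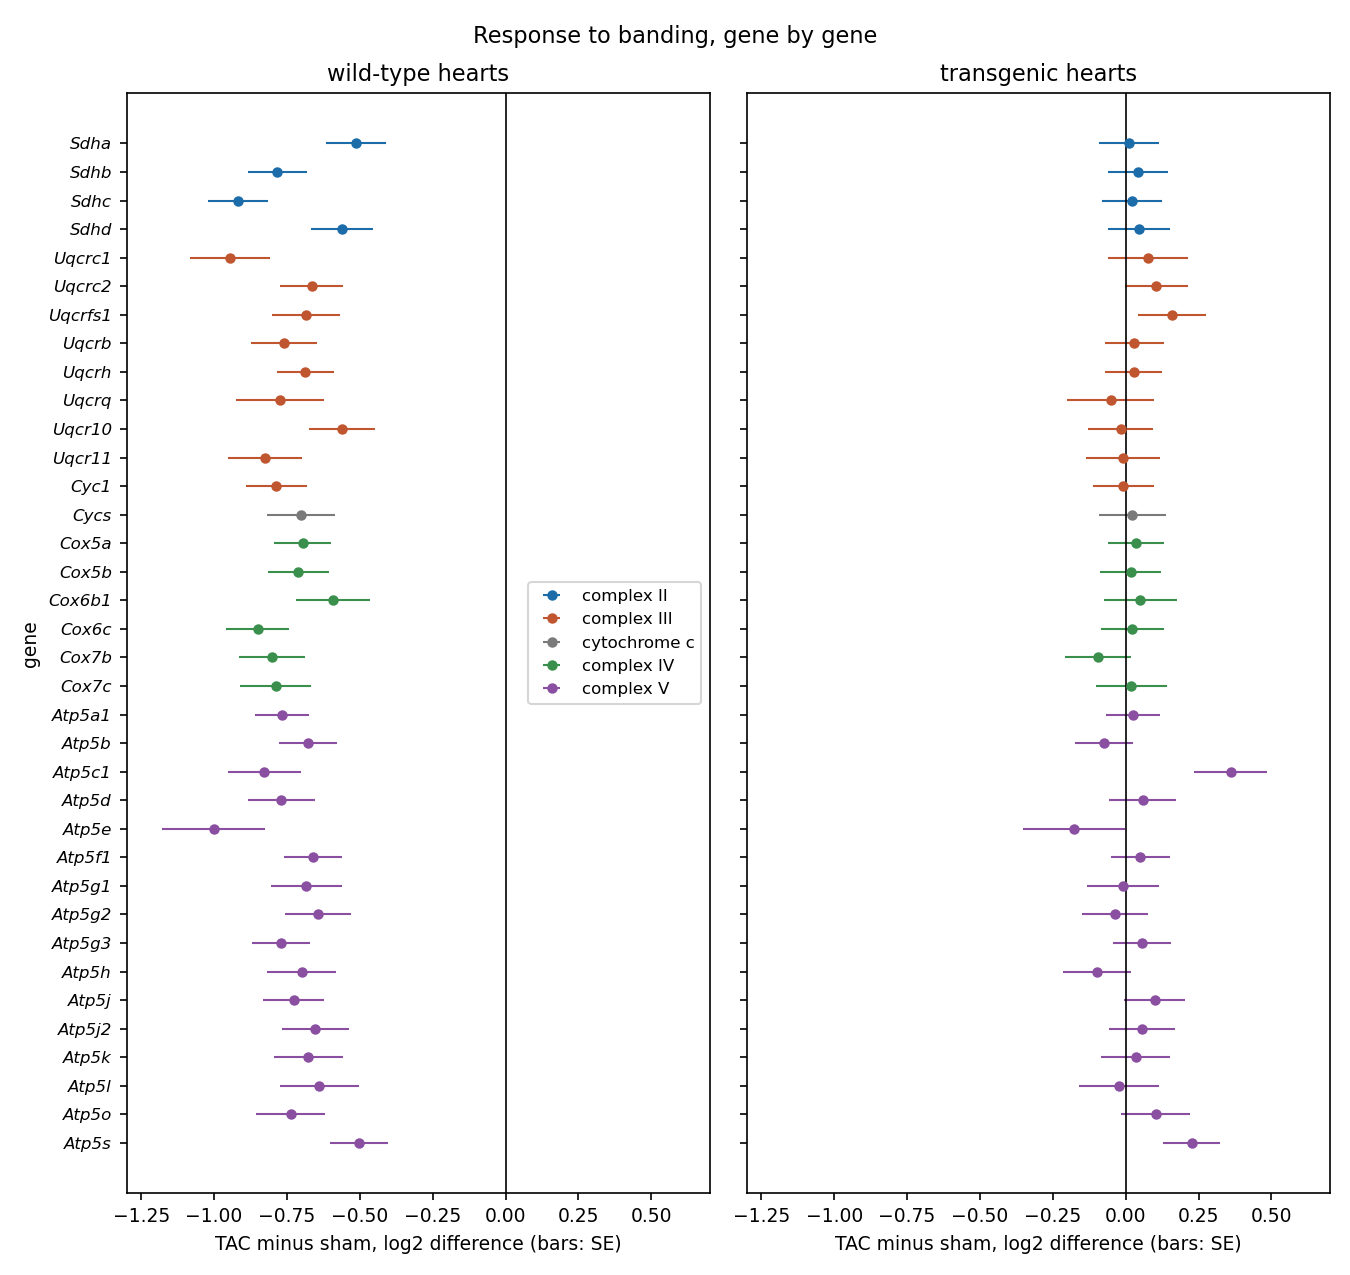
Points are log2 differences of TAC minus sham for each gene and bars are SE, from 3 arrays against 3 (Uqcrb 2 wild-type TAC arrays), in wild-type hearts on the left and transgenic hearts on the right. All 36 points lie between -1.0 and -0.50 on the left and between -0.18 and 0.36 on the right.

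These falls are relative to the array's own signal. The percentile itself, in log2 units, ran from 8.97 to 9.24 on wild-type sham arrays, 9.88 to 9.95 on wild-type TAC arrays, 9.50 to 9.51 on transgenic sham arrays and 9.48 to 9.86 on transgenic TAC arrays. It was highest after TAC in wild-type hearts. The unscaled median of the members was 16.42 to 16.69 on wild-type sham, 16.59 to 16.71 on wild-type TAC, 16.54 to 16.75 on transgenic sham and 16.62 to 16.85 on transgenic TAC arrays. The groups thus overlapped before scaling, and neither the wild-type TAC nor the transgenic sham range lay below the wild-type sham range. The falls appear once the percentile is subtracted. The genotype and interaction differences given below are relative to it in the same way. Under quantile normalization, which gives every array the same distribution of signals, all 36 estimates for TAC in wild-type hearts were still below 0 (-0.61 to -0.10). Of these, 13 passed, and the median was -0.28, with complex medians of -0.22, -0.28, -0.34 and -0.23 from II to V. Relative to the median of all genes, the members stood at -0.58 with the percentile, -0.58 with median scaling, -0.23 with quantile normalization and -1.09 with normexp, which moved the median of all genes itself to 0.25. Over all genes, quantile normalization also turned the split of calls, from 3166 lower and 2203 higher to 1987 lower and 2199 higher.

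Probe brightness moved with the result as well. Of the 36 members, 35 had a mean unscaled signal between 14.50 and 17.72 (log2). Among other genes the median difference after TAC in wild-type hearts was -0.06 for signals of 8 to 10, -0.25 for 14 to 15, -0.29 for 15 to 16, -0.37 for 16 to 17 (272 genes) and -0.63 above 17 (98 genes). In the same bins the members measured -0.50 (Atp5s alone), -0.71 (2 genes), -0.77 (7), -0.71 (14) and -0.73 (12). Members therefore lay below the median of other genes in every bin, and the gap was smallest in the brightest one, where 84.7% of other genes also passed as lower. Only the 36 members were left out of the bins. The cardiomyocyte markers and related pathway genes described below thus stayed among the other genes. The part of brightness in the result was not tested.

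**Figure D3:**
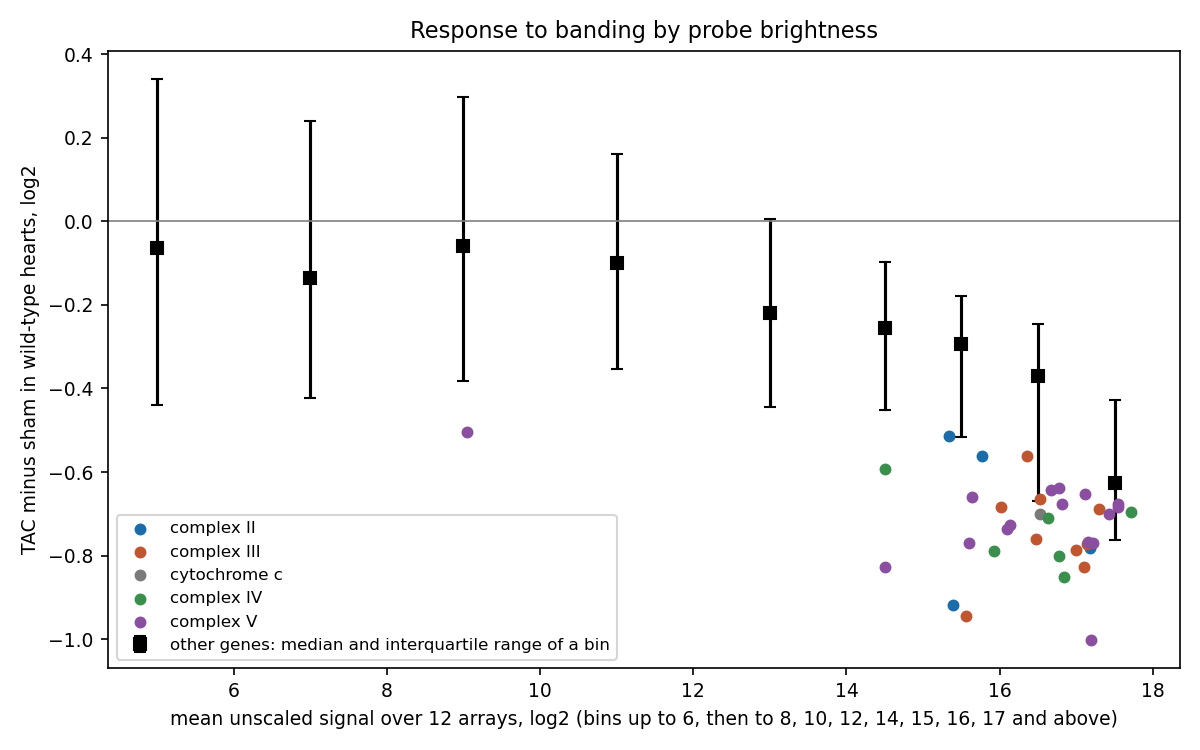
The mean unscaled signal of each probe (log2, horizontal) is set against the TAC minus sham difference in wild-type hearts (log2, vertical). Coloured points are the 36 genes by complex, and black squares with bars are the median and interquartile range of other genes in a brightness bin, falling from -0.06 at signals of 8 to 10 to -0.63 above 17.

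Slides, as the array files name them, were the batch that could be read, and some held more than 1 group. Slides 1, 4 and 5 held 1 group each: transgenic sham array 3, transgenic TAC arrays 1 and 2, and wild-type sham array 3. Wild-type TAC arrays 1 and 3 were on slide 2, which held no wild-type sham array. Slide and group could thus be told apart only in part. On slide 3, which held 2 wild-type sham arrays and 1 wild-type TAC array, the member median for TAC was -0.66, with all 35 members that had a value below 0. With slide as a block the median was -0.70, and 0 of 36 passed (adjusted p from 0.0501 to 0.0957). Of all genes, 175 passed as lower and 244 as higher in that fit. With this layout, the count of 0 does not decide whether slide bears on the falls.

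Markers of heart cell types were read on the same arrays. Cardiac muscle was plain in every sample: all 14 cardiomyocyte markers were well above background on all 12 arrays. Of these, 10 passed as lower after TAC in wild-type hearts and 0 as higher, with a median of -0.73. Their summed linear level was 4176 to 4404 on wild-type sham, 2446 to 2835 on wild-type TAC, 3035 to 3401 on transgenic sham and 2779 to 3352 on transgenic TAC arrays. On each array the respiratory median and the cardiomyocyte median were close: their difference ran from -0.14 to 0.10 over the wild-type TAC arrays, from -0.05 to 0.08 over the transgenic sham arrays and from 0.00 to 0.12 over the transgenic TAC arrays. In tissue RNA, fewer cells of a type and less RNA per cell cannot be told apart.

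Fibroblast markers moved the other way, with 9 of 10 higher and 0 lower after TAC in wild-type hearts (median 2.01). Their sum was 101 to 160 on wild-type sham, 349 to 518 on wild-type TAC, 172 to 187 on transgenic sham and 165 to 210 on transgenic TAC arrays. Endothelial markers passed as higher for 4 of 9 and as lower for 1. Smooth muscle and pericyte markers passed as higher for 4 of 8, macrophage markers for 2 of 8 measured and T cell markers as lower for 1 of 6. None of 2 erythroid and 3 adipocyte markers measured passed. Their part in the respiratory result was not tested.

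**Figure D4:**
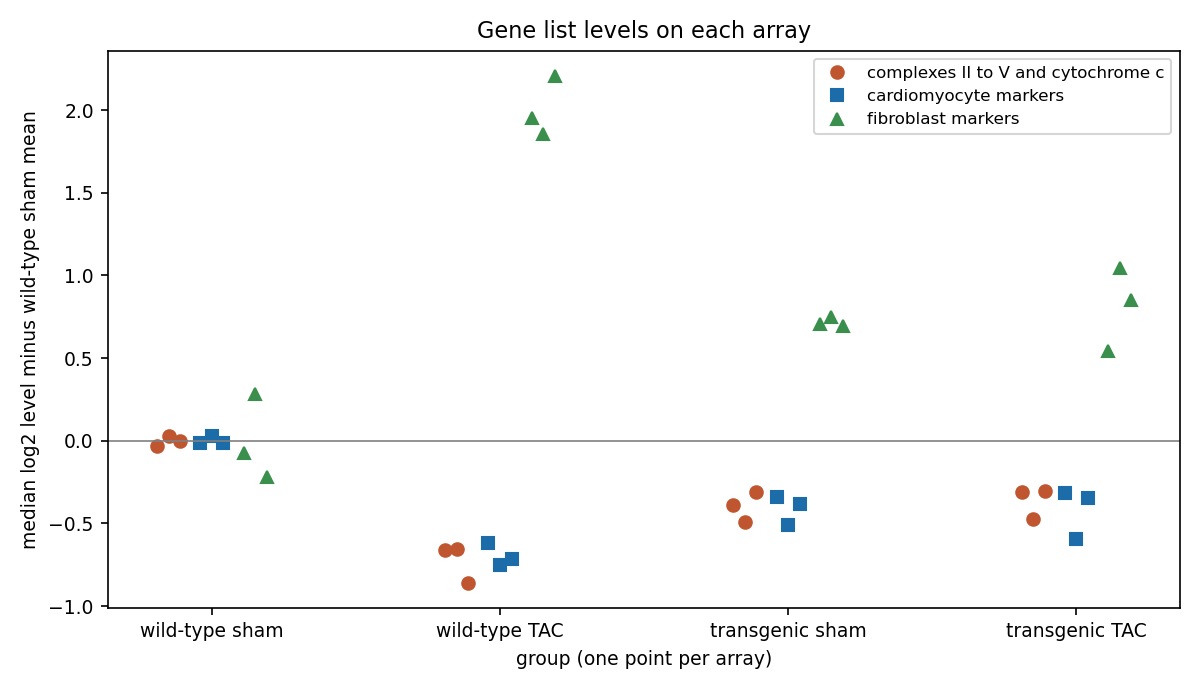
Each point is an array's median log2 level of a gene list minus the wild-type sham mean, in 4 groups of 3 arrays. Respiratory genes (circles) and cardiomyocyte markers (squares) sit side by side in every group, near -0.7 on wild-type TAC arrays, while fibroblast markers (triangles) stand near 2 there.

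TAC against sham within transgenic hearts addresses whether this response is present with CnAb1. None of the 36 genes passed in either direction by limma. The median was 0.03, and estimates ran from -0.18 ± 0.18 (Atp5e) to 0.36 ± 0.13 (Atp5c1). At an unadjusted p under 0.05 there were 2 members, both higher, and 0 lower. Of all genes, 0% passed as lower and 0% as higher, with 1576 at an unadjusted p under 0.05 (3.48% higher), and a fit of these groups alone also called 0. The transgenic TAC and sham arrays overlapped for 34 members. For Atp5c1 and Atp5s every TAC array lay above every sham array, a pattern found for 4.53% of all genes. The sign of the member median depended on the scaling, at -0.04 with median scaling, -0.07 with normexp background correction and 0.04 with quantile normalization. On slide 2, with 1 array of each group, the median was 0.09.

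Atp5c1, the gamma subunit that turns inside the head, had the highest estimate. It measured 5.28, 5.37 and 5.30 on wild-type sham, 4.49, 4.65 and 4.32 on wild-type TAC, 4.80, 4.80 and 4.92 on transgenic sham and 5.38, 5.23 and 5.0 on transgenic TAC arrays. Transgenic TAC array 1 was above every wild-type sham array, the only array of another group to be so for any member. The TAC difference in transgenic hearts, 0.36 ± 0.13, did not pass (adjusted p = 0.799). A second Atp5c1 probe measured 0.41 there and -0.64 in wild-type hearts.

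Transgenic against wild-type hearts after sham asks what CnAb1 does without the added load. The members were lower in transgenic hearts, with a median of -0.39 and estimates from -0.61 ± 0.10 (Sdhc) to -0.23 ± 0.10 (Sdha), but only Sdhc and Sdhb passed. By complex the medians were -0.42, -0.41, -0.39 and -0.38 from II to V, and Cycs measured -0.27 ± 0.12. Of all genes 0.658% passed as lower and 0.773% as higher, with a median of -0.05. Other genes with signals of 14 to 15, 15 to 16, 16 to 17 and above 17 had medians of -0.15, -0.13, -0.24 and -0.33. Members in these bins measured -0.40, -0.46, -0.35 and -0.42. The Sdhc values are given above (adjusted p = 0.0256). Sdhb, the iron-sulfur subunit that carries electrons from the flavin, measured 8.14, 8.08 and 8.0 on wild-type sham, 7.34, 7.36 and 7.18 on wild-type TAC, 7.57, 7.47 and 7.68 on transgenic sham and 7.66, 7.53 and 7.66 on transgenic TAC arrays. All transgenic arrays lay between the wild-type groups. The sham difference was -0.50 ± 0.10 (adjusted p = 0.0493).

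Though few members passed, the transgenic and wild-type sham arrays did not overlap for 35 of 36, all lower, against 14.2% of all genes; Atp5l was the exception. At an unadjusted p under 0.05, 35 were lower, against 11% of all genes. The count that passed was 23 when only probes well above background on all 12 arrays were tested. That filter shortens the list of genes and leaves out the dimmer ones, and 768 of its 12367 genes passed as lower. The count of members was 0 with slide as a block, with quantile or median scaling, with normexp or with the 2 groups fitted alone. It was also 0 without any single wild-type sham array, without wild-type TAC array 1 or without transgenic sham array 2 or 3, and 1 without wild-type TAC array 2 or 3, transgenic sham array 1 or transgenic TAC array 1 or 3. The median was -0.11 under quantile normalization, where Cyc1 turned to 0.04, and -0.25 with median scaling. On slide 3 (1 transgenic array against 2) it was -0.49, with all 36 below 0. On that transgenic array, sham array 2, negative control spots were brighter than elsewhere, at 48.6 against 15.4 to 21.0, and 37.3% of its probes were well above background against 60.5% to 78.3%. Cardiomyocyte markers had a median of -0.38 in the same comparison and fibroblast markers 0.71, with 0 of 14 and 0 of 10 passing.

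After TAC the order was turned, and the members were higher in transgenic than in wild-type hearts. The median was 0.35, with estimates from 0.16 ± 0.11 (Uqcr10) to 0.71 ± 0.13 (Atp5c1), and complex medians of 0.31, 0.38, 0.33 and 0.35 from II to V. Of the 36, 4 passed: Atp5c1 (adjusted p = 0.0207), Cyc1 at 0.48 ± 0.10 (adjusted p = 0.037), the peripheral stalk subunit Atp5j at 0.48 ± 0.10 (adjusted p = 0.0388) and Atp5a1 at 0.39 ± 0.09 (adjusted p = 0.0499). Of all genes 2.12% passed as higher and 1.85% as lower, with a median of 0.05. Other genes with signals of 14 to 15, 15 to 16, 16 to 17 and above 17 had medians of 0.15, 0.16, 0.16 and 0.23. Members in these bins measured 0.51, 0.33, 0.36 and 0.32. The arrays did not overlap, all higher, for 29 of the 35 members with a value on every array, against 19.4% of all genes. They overlapped for Uqcrq, Uqcr10, Atp5b, Atp5e, Atp5g1 and Atp5h. In this comparison 0 of 14 cardiomyocyte markers passed (median 0.25), while 5 of 10 fibroblast markers (median -0.92), 3 of 8 smooth muscle and pericyte markers and 1 of 9 endothelial markers were lower and none of them higher. Their part in the respiratory result was not tested here either.

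Cyc1, the heme protein that hands electrons to cytochrome c, measured 7.14, 7.09 and 6.82 on wild-type TAC arrays and 7.51, 7.47 and 7.52 on transgenic TAC arrays. The transgenic arrays were tight and all above the wild-type ones. Its wild-type sham arrays were at 7.83, 7.77 and 7.81 and its transgenic sham arrays at 7.48, 7.51 and 7.54. Atp5a1 measured 7.25, 7.19 and 7.25 on wild-type TAC and 7.74, 7.56 and 7.55 on transgenic TAC arrays. Atp5j measured 6.26, 6.27 and 6.05 and then 6.74, 6.64 and 6.63 on the same groups. Neither pair of groups overlapped. At an unadjusted p under 0.05, 30 members were higher, against 13.1% of all genes.

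The count for genotype after TAC depended on the tests' setting too. It was 24 when a probe had to be well above background on every array, with 1535 of 12367 genes tested passing as higher. It was 1 without a filter, 1 with quantile normalization and 0 with median scaling, normexp, slide as a block or the 2 groups fitted alone. It was 0 without wild-type TAC array 1 or 3 or transgenic TAC array 1 or 2. It was 1 without any single wild-type sham array or transgenic TAC array 3, and 2 without wild-type TAC array 2. The median was 0.19 under quantile normalization, with Uqcr10 at -0.00158 (adjusted p = 0.994). On slide 2, from 1 transgenic array against 2, the median was 0.43 with none of the 36 below 0.

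Set as levels, the means of both transgenic groups lay between the wild-type sham and wild-type TAC means for all 36 genes. For 25 genes each of the 6 transgenic arrays lay between the arrays of the wild-type groups, Uqcrb among them without its outlier wild-type TAC spot. The share of all genes with either pattern was not counted, so these counts do not set the members apart from other genes. Against the wild-type sham mean, the member median per array was -0.39 ± 0.09 (SD, n = 3) on transgenic sham and -0.36 ± 0.10 (SD, n = 3) on transgenic TAC arrays. These groups differed by less than their spread.

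Whether the response to TAC differed between genotypes was tested by the interaction: the response of transgenic hearts less that of wild-type hearts. A positive value means that the response was less negative in transgenic hearts. All 36 estimates were above 0, with a median of 0.73 and a range from 0.52 ± 0.14 (Sdha) to 1.19 ± 0.18 (Atp5c1, adjusted p = 0.0141). Of these, 28 passed as higher and 0 as lower. Of all genes, 4.16% passed as higher and 2.88% as lower, with a median of 0.10. The 8 that did not pass were Sdha, Uqcrq, Uqcr10, Cox6b1, Atp5e, Atp5g2, Atp5h and Atp5l (adjusted p up to 0.0815). The interaction uses all 12 arrays, so it shares arrays with each of the 4 other comparisons, and it is no independent support for them.

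By complex, the interaction medians were 0.72 for complex II, 0.78 for complex III, 0.73 for complex IV and 0.72 for complex V, and Cycs measured 0.72 ± 0.16. The complex medians spanned 0.0611, and subunits within a complex ranged over up to 0.588, which again decides nothing. Among other genes brighter than 17 the median was 0.58, and for the 12 members in that bin 0.73. Of those other genes 36.7% passed as higher, and of other genes with signals of 16 to 17, 22.4% did. For the interaction, 7 of 14 cardiomyocyte markers were higher, at a list median of 0.67, and 7 of 10 fibroblast markers were lower, at -1.76.

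The number of members that passed for the interaction rested on single arrays. It was 1 without wild-type sham array 3, and 3 without wild-type sham array 1 or without transgenic TAC array 1. It was 10 without wild-type sham array 2 or wild-type TAC array 3, 13 without wild-type TAC array 1, 14 without transgenic TAC array 3 and 18 without transgenic sham array 2. With slide as a block 0 members and 0 genes in all passed, with a member median of 0.83. Quantile normalization left 2 members, Atp5c1 at 0.92 and Atp5s at 0.70, and a median of 0.32. Median scaling left 2 members and normexp 0. The split of calls over all genes turned from 730 lower and 1055 higher to 570 and 330 under quantile normalization and 413 and 199 under median scaling. All 36 estimates stayed above 0 under each of these settings.

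**Figure D5:**
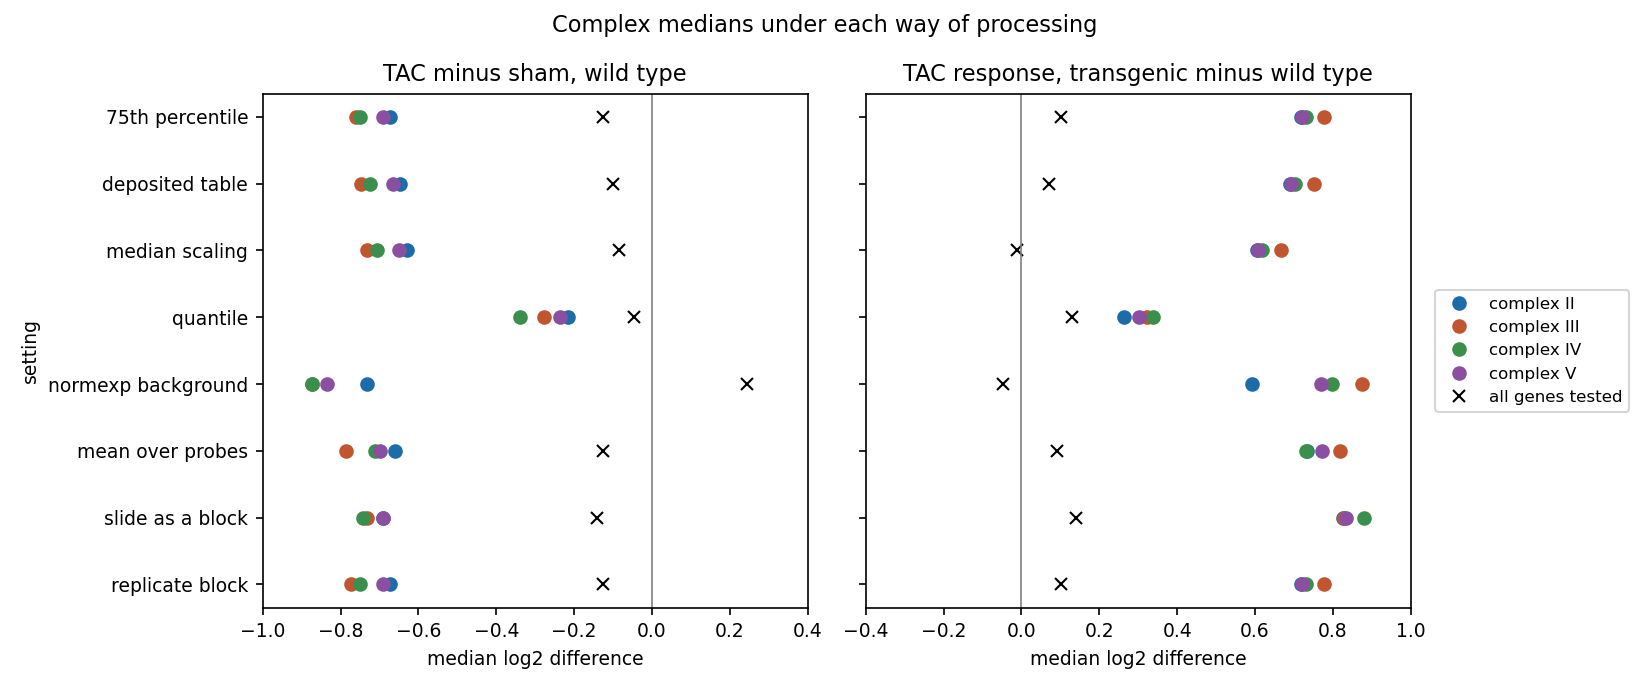
Coloured points are the median log2 differences of complexes II to V and crosses the median of all genes tested, for 8 ways of processing, for TAC in wild-type hearts on the left and the interaction on the right. Quantile normalization brings the medians nearest to 0 (-0.34 to -0.22 on the left, 0.26 to 0.34 on the right), and the order of the complexes is not the same in every setting.

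The members had 58 probes, and 15 members had more than 1. All 22 probes that were not the brightest for their gene were below 0 for TAC in wild-type hearts, 21 of them past the threshold, and 17 passed for the interaction. The exception was a dim Cox7c probe at -0.56 (limma adjusted p = 0.0541, over all probes tested). The share of all probes that passed in this fit is not given here. These probes read the same genes on the same arrays, so they are no independent support. For TAC in transgenic hearts, the second Uqcrq probe measured 0.29 against -0.05 for the one used. The 4 other Atp5l probes measured 0.12, 0.15, 0.16 and 0.49 against -0.02, the last being the dimmest.

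Other genes of the pathway were read from lists of related genes. Of 12 measured further subunits and tissue isoforms of complex IV, 7 fell after TAC in wild-type hearts and 0 rose (median -0.65). Cyct, the testis form of cytochrome c, stood in the same list and did not pass (-0.74, adjusted p = 0.514). The muscle isoforms Cox7a1, Cox8b and Cox6a2 measured -1.01 ± 0.14, -0.79 ± 0.11 and -0.69 ± 0.12, and Cox4i1, whose spot on transgenic sham array 3 was left out as an outlier, -0.78 ± 0.11 (adjusted p from 0.00196 to 0.00463). All 4 passed for the interaction as well, as part of 5 in the list.

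Assembly factors, which build the complexes and insert their hemes and metals, had a smaller median (-0.36), with 10 of 30 lower and 0 higher. Surf1, needed for complex IV, measured -0.47 ± 0.09 (adjusted p = 0.00626) and Cox10, which makes heme for it, -0.71 ± 0.15 (adjusted p = 0.0091). The complex III factors Uqcc2 and Ttc19 measured -0.53 ± 0.11 and -0.81 ± 0.19 (adjusted p = 0.0101 and 0.0146). Only Surf1 passed for the interaction (0.47, adjusted p = 0.0496).

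Of 3 proteins bound to ATP synthase, the small proteins Usmg5 and Mp68 fell, by 0.69 and 0.59, and the inhibitor Atpif1 measured -0.18 ± 0.11 and did not pass (adjusted p = 0.291). Of the carriers that bring phosphate and exchange ADP for ATP, the phosphate carrier Slc25a3 and the heart form of the nucleotide carrier, Slc25a4, measured -0.76 ± 0.10 and -0.72 ± 0.12 and passed. The form found in many tissues, Slc25a5, measured -0.01 ± 0.18. Among 12 regulators 4 were lower and 0 higher, with a median of -0.21. Ppargc1a, which encodes PGC-1alpha, measured -1.80 ± 0.37 (adjusted p = 0.00845), the receptors Esrra and Esrrb -0.71 ± 0.14 and -0.47 ± 0.12, and the muscle regulator Perm1 -0.71 ± 0.15. Perm1 alone of these passed for the interaction (0.86, adjusted p = 0.0434). Nrf1, Gabpa and Yy1, which encode the factors whose words are printed above, measured 0.21, 0.04 and -0.07 and did not pass (adjusted p from 0.279 to 0.796).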

How the data were processed

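Signals were read from 12 single-colour array files. Per the file headers, these hold spot intensity from Agilent Feature Extraction 10.7.3.1, background-subtracted and not scaled between arrays. The authors' deposited table holds log2 values, centred on each probe's median; correlation with centred scanner values was at least 0.923 and its column medians ran from -0.0947 to 0.119. Its scaling step is not stated, and RMA, named in the submitters' processing notes, is not tied to a step.

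Outlier spots were left out, replicate spots averaged and the 75th percentile of each array subtracted from its log2 signals. Transcript accessions gave gene names by RefSeq, GRCm38.p6, for 26424 of 39429 probes. Probes well above background on at least 3 arrays were kept, and the brightest was taken for each gene, which left 25370 genes. Unnamed probes counted as genes of their own.

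One mean per group was fitted to all arrays with limma 3.58.1 in R 4.3.3 (two-sided, 8 residual degrees of freedom, Benjamini-Hochberg adjusted p under 0.05). A gene fell or rose only if it passed. The fit was tested on simulated data. The number of arrays limits the precision, and no pair held identical values. The members and lists were chosen with earlier results of these data known. Values on every array are given for each complex's most and least changed member, Cycs, the subunit c genes and members passing in comparisons with at most 3 such members; Atp5c1, Cyc1, Atp5j and Atp5a1 were added after their values were seen. The second probes were chosen after their values were seen too. Related genes are named by the smallest p, up to 4 a list; Slc25a5, Atpif1, Nrf1, Gabpa and Yy1 were also named for their role. Alternatives were quantile and median scaling, normexp with an offset of 50 on median signals (the files hold no mean), the deposited table, other filters, the mean over probes, the compared groups alone, slide or replicate blocks and each array left out.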

Additional observations from a re-analysis of the deposited data

Results flagged for a closer look

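For 28 of the 36 genes the response to TAC differed between the genotypes by the interaction term (limma, adjusted p under 0.05), against 4.16% of all genes. This count was 1 without wild-type sham array 3, 2 with quantile or median scaling and 0 with slide as a block or normexp. Other genes as bright as the members passed more often than all genes did. The share passing as higher was 12.2% for signals of 14 to 15, 14.1% for 15 to 16, 22.4% for 16 to 17 and 36.7% above 17. Each value below is the transgenic response minus the wild-type one on the log2 scale. In complex II these were Sdhb (0.83), Sdhc (0.94) and Sdhd (0.61), with adjusted p from 0.0141 to 0.0421. Complex III gave Uqcrc1 (1.02), Uqcrc2 (0.77), Uqcrfs1 (0.84), Uqcrb (0.79), Uqcrh (0.71), Uqcr11 (0.82) and Cyc1 (0.78), with adjusted p from 0.0222 to 0.0309. Cycs measured 0.72 (adjusted p = 0.0339). In complex IV the values were 0.73 for Cox5a, 0.73 for Cox5b, 0.87 for Cox6c, 0.71 for Cox7b and 0.81 for Cox7c, with adjusted p from 0.0192 to 0.0331. Complex V gave 12 such genes, with adjusted p from 0.0141 to 0.0473. The head and central stalk subunits were Atp5a1 (0.79), Atp5b (0.60), Atp5c1 (1.19) and Atp5d (0.83). Peripheral stalk subunits were Atp5f1 (0.71), Atp5j (0.83) and Atp5o (0.84), and the rotor ring genes Atp5g1 (0.67) and Atp5g3 (0.83). The membrane subunits Atp5j2 and Atp5k measured 0.71 and 0.71, and Atp5s 0.73. Single outlying arrays were not tested for in these groups of 3.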

How the results depend on the processing

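Over 22 settings, 12 of which left out an array, no called value changed sign. The cause of each move below was not tested. Quantile normalization gave 13, 0, 1 and 2 members passing for TAC in wild-type hearts, genotype after sham, genotype after TAC and the interaction, with medians of -0.28, -0.11, 0.19 and 0.32. Its complex medians from II to V were -0.22, -0.28, -0.34 and -0.23 for TAC in wild-type hearts and 0.26, 0.32, 0.34 and 0.30 for the interaction. Median scaling gave 0, 0 and 2 for the last 3 counts, a genotype median after sham of -0.25, an interaction median of 0.62, and 0.60 and 0.62 for complexes II and IV. Normexp gave 0 for each of those counts and 27 for TAC in wild-type hearts, with a median there of -0.84, complexes III to V at -0.87, -0.87 and -0.84, and 0.59 for the interaction of complex II; it moved the median of all genes for TAC in wild-type hearts from -0.13 to 0.25. Without a filter the counts for genotype after sham, genotype after TAC and the interaction were 0, 1 and 10. Where every array had to be well above background they were 23, 24 and 36. Of the 12367 genes then tested, 768 passed as lower after sham, 1535 as higher after TAC and 2233 as higher for the interaction. The deposited table gave 36, 3, 4 and 27 with TAC in wild-type hearts first. The mean over probes gave 1 for genotype after sham, and the compared groups alone gave 0 and 0 for genotype; the interaction has no such fit. With slide as a block all counts were 0, the TAC median in transgenic hearts was 0.14, and the interaction median was 0.83, with 0.83 and 0.88 for complexes II and IV. The replicate block left 36 for TAC in wild-type hearts and gave 0, 1 and 12 for the others. The numbers did not pair the arrays: same-numbered arrays correlated from -0.39 to 0.22, and 1 of 12 correlated best with its own number.

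Leaving out an array in turn kept 36 members for TAC in wild-type hearts and 0 for TAC in transgenic hearts, and gave 0 to 2 for genotype after sham, 0 to 6 after TAC and 1 to 31 for the interaction. The member medians ran from -0.75 to -0.66, -0.01 to 0.08, -0.44 to -0.34, 0.29 to 0.40 and 0.68 to 0.80 in that order. Complex medians for TAC in wild-type hearts stayed between -0.78 and -0.62 for II and III and between -0.79 and -0.65 for IV and V, and for the interaction between 0.65 and 0.84. Levels are relative to each array's 75th percentile, and 3 arrays a group with a median residual SD of 0.283 limit what can pass.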
